A study of Homo sapiens with 18 samples.

Results

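Replication-dependent histone genes encode the core histones H2A, H2B, H3 and H4 and the H1 linker histones that cells make while they copy their DNA. They were taken here as the protein-coding genes of GENCODE release 44 with symbols made of H2AC, H2BC, H3C or H4C and a number, together with H1-1 to H1-5. This gave 68 genes: 5 H1, 17 H2A, 18 H2B, 13 H3 and 15 H4. The Illumina files listed 66 of them among 60617 genes and the long-read files 64 among 58676. H2AC18 and H2AC19 were not analysed here, and H3C2 and H3C3 were analysed on Illumina only. On GRCh38, 54 of the genes lie on chromosome 6, 13 on chromosome 1 and 1, H4C16, on chromosome 12. Their total exon length ran from 386 to 5002 bases, and 52 of the 68 had 1 exon in every annotated transcript.

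The counts came from 18 RNA-seq libraries of H1975 (NCI-H1975) and HCC827, established cell lines from human lung adenocarcinoma that carry mutant EGFR. There were 3 independent RNA samples of each line. All were read by short-read Illumina sequencing, by long-read cDNA sequencing of Oxford Nanopore (ONT) and by PacBio Iso-Seq, also a long-read method, which makes 6 groups of 3 libraries. No agent was applied to either line. Both lines were grown in the same serum-supplemented medium to near confluence and frozen as cell suspensions, so each group describes a near-confluent culture of 1 line. Illumina and ONT libraries were made from poly(A)-selected mRNA, whereas PacBio libraries were made from total RNA and size-selected for molecules near 2 kb. The platforms differ at once in RNA input, library preparation and read type, and these cannot be told apart in a platform difference. The labels do not say whether the RNA samples came from separate cultures, so p-values measure the spread between these samples, which may be technical.

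Most animal mRNAs end in a poly(A) tail. Replication-dependent histone mRNAs end instead in a short RNA hairpin that is bound by SLBP, the stem-loop binding protein, and is made by a cleavage step guided by the U7 small nuclear RNA. They are made during S phase, when NPAT acts as a coactivator at the histone gene clusters, and are degraded when DNA synthesis stops, while the replacement variants (such as H3.3 and H2A.Z) come from ordinary polyadenylated mRNAs made throughout the cell cycle. Poly(A) selection keeps RNA that carries a tail. How much of each histone RNA was kept was not tested.

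The hairpin is shown because it is the feature that defines these mRNAs and that sets H4 genes apart from the other classes. A search for the histone stem-loop consensus (4 of its letters free) on the transcribed strand, within 200 bases after the stop codon, found it in 67 of the 68 genes (all but H2AC15) and in 71 of 20046 protein-coding genes (0.354%). The other 4 were H1-6, H2AX, H3-4 and H3-7. In the sequences below, read from GRCh38 5′ to 3′ with 5 bases on each side, capitals mark the hairpin core, and each gene is one that the results return to.
H2BC5: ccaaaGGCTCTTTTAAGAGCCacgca
H2BC9: ccaaaGGCTCTTTTCAGAGCCactta
H2BC18: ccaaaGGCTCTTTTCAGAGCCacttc
H4C3: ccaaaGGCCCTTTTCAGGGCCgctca
H4C9: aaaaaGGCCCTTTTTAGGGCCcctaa
H4C11: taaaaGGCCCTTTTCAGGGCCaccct
The stretches lie at chr6:26158582-26158607, chr6:26252050-26252075, chr1:149811880-149811905, chr6:26104312-26104337, chr6:27139649-27139674 and chr6:27824454-27824479, on the strand of each gene. All 15 H4 genes, and 0 of the other 52 genes with a hairpin, had a core that opens with GGCCCTT, in 3 forms that differ in its middle letters. The most common core, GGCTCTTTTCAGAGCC, stood in 40 genes of the other classes. The polyadenylation signal AATAAA lay within 1000 bases after the stop codon in 34 of the 68 genes, against 15133 of 20046 protein-coding genes (75.5%).

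Promoters are shown for 4 genes because H2BC5 and H2BC9 differed between the lines in opposite directions, H4C11 stands for the H4 class and H2BC12 was the H2B gene of the highest level per kilobase on Illumina. The RefSeq promoter table (GRCh38.p14) held 63 of the 68 genes, with 250 bases before and 50 bases after each start, and was searched on both strands. The octamer ATTTGCAT, the binding sequence of POU2F1 (Oct-1), stood in 14 of 18 H2B, 11 of 16 H2A, 1 of 11 H3, 0 of 13 H4 and 0 of 5 H1 promoters, against 598 of 27305 promoters of all genes (2.2%). CCAAT stood in 53 of 63, and in 3 of 13 H4 promoters, against 39.7% of all promoters. TATAAA stood in 43 of 63, against 14.0%. Matches of 2 motifs that overlap were both counted, and H2A and H2B genes that face each other share part of a window. Capitals mark ATTTGCAT and TATAAA on the printed strand.
H2BC12: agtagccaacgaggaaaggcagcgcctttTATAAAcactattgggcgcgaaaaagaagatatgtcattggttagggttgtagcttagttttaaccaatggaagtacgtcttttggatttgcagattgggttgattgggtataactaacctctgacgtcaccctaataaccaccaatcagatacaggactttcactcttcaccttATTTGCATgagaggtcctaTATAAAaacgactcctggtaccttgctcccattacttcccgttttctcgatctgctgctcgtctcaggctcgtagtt
H2BC5: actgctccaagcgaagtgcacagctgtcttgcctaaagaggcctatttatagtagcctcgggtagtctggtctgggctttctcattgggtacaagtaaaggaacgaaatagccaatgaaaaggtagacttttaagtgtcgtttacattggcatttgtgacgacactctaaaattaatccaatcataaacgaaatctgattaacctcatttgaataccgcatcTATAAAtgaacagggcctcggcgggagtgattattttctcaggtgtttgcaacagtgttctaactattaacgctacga
H2BC9: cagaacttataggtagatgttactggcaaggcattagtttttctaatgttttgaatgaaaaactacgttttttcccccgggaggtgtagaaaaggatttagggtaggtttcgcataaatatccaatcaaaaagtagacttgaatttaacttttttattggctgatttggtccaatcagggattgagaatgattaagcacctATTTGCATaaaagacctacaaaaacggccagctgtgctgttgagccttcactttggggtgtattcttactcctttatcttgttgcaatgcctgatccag
H4C11: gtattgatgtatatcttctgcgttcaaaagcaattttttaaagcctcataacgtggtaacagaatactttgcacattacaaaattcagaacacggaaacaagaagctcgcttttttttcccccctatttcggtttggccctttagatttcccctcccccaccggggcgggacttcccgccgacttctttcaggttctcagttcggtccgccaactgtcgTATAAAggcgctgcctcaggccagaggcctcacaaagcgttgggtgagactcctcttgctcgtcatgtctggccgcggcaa
These windows are chr6:27146809-27147108, minus strand; chr6:26157871-26158170, plus strand; chr6:26251364-26251663, plus strand; and chr6:27823842-27824141, plus strand.

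Gene totals lay between 81467393 and 116497461 counts in ONT libraries, between 33362018 and 40200473 in 5 Illumina libraries and between 37795 and 54339 in PacBio libraries, while Illumina HCC827 replicate 2 held 10020699. ONT HCC827 replicate 2 and Illumina HCC827 replicate 3, whose header names a repeat, stood apart from their groups (mean chi-square per gene 103.6 and 115.5 for the ONT library, 69.56 and 23.1 for the Illumina library). In 2 PacBio pairs, H1975 replicates 2 and 3 and HCC827 replicates 1 and 2, the difference was below the sampling noise (0.5502 and 0.6713), and summing each pair left 0 histone genes for the PacBio line test. All 6 epithelial markers, among them the keratin gene KRT18, had counts in every Illumina library. Of 7 fibroblast markers 2 had counts in all 6 Illumina libraries, and the list summed to between 75.3 and 87.9 CPM in H1975 and between 0.23 and 0.62 in HCC827. COL1A2 made up most of it, with 3115, 2915 and 2508 counts in H1975 and 1, 0 and 0 in HCC827, and the part of these genes in the line differences was not tested. The 5 endothelial markers summed to between 7.40 and 8.58 CPM in H1975 and between 2.99 and 4.05 in HCC827, and the 6 hematopoietic markers to between 6.71 and 7.58 and between 0.80 and 1.28.

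The histone genes together took 302 ± 15.8 CPM in H1975 and 140 ± 9.71 in HCC827 on Illumina (mean ± SD, n = 3, CPM being relative to the gene total of the library), and the libraries of the lines did not overlap. On ONT they took 521 ± 23.8 and 247 ± 11.9. In unscaled CPM each of the 5 classes was lower in HCC827 on both platforms, with no overlap between the libraries of the lines. On Illumina the ratio of HCC827 to H1975 was nearest to 1 in H1 (0.673), at 20.01 ± 0.69 CPM in H1975 and 13.5 ± 2.173 in HCC827, and farthest in H2B (0.385), at 115 ± 2.72 against 44.4 ± 4.15. On ONT H2B (0.403) was again the farthest, with H1 (0.412) next to it, and H3 (0.593) was nearest to 1. Over all classes this ratio of the mean sums was 0.463 on Illumina and 0.474 on ONT. After TMM scaling, which sets the bulk of genes equal between lines, the ratio was 0.595 and 0.702. The scaled class ratios lay between 0.496 (H2B) and 0.865 (H1) on Illumina and between 0.597 (H2B) and 0.868 (H3) on ONT. Scaled H1 sums overlapped between lines on Illumina, at 17.4, 17.3 and 18.4 CPM in H1975 and 13.2, 13.99 and 18.7 in HCC827, where the highest was replicate 3, and the other classes did not overlap on either platform. Bulk libraries cannot tell fewer cells in S phase from less histone RNA in each of them.

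**Figure D1:**
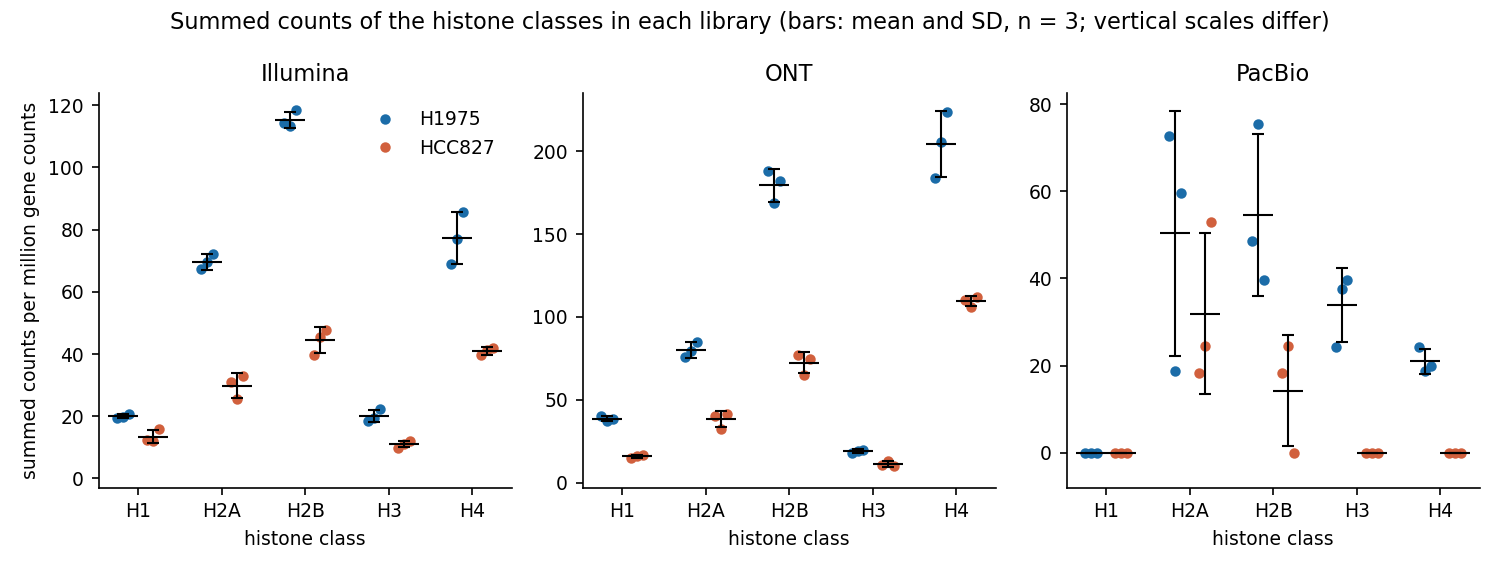
Summed counts of each histone class in CPM of the gene total (vertical axis) in every library, with H1975 in blue and HCC827 in red and bars for the mean and SD of 3 libraries; the vertical scales of the 3 platforms differ. On Illumina and ONT all 3 HCC827 libraries sit below all 3 H1975 libraries in each class, and PacBio HCC827 libraries have 0 counts in H1, H3 and H4.

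Gene by gene, the line difference was not 1 shift. A gene was called at a Benjamini-Hochberg adjusted p below 0.05 in edgeR's quasi-likelihood test over all genes. On Illumina 41 of the 66 genes passed the filter on low counts, and 9 were called higher and 22 lower in HCC827. Their share called, 31 of 41, compares with 74.1% of all 25711 genes tested (36.1% higher and 38.0% lower). On ONT 50 of 64 passed, with 12 higher and 22 lower, against 62.7% of 27366 genes (31.1% higher and 31.6% lower). Some genes reached the level of the filter in all libraries of 1 line only, which favours 1 direction: H2AC17, H3C2, H3C13, H4C5 and H1-3 on Illumina and H2AC15, H3C1, H3C13, H4C5 and H3C11 on ONT. Of the 35 and 42 genes at that level in every library, 8 and 11 were higher and 21 and 21 lower. The median log2 fold of the tested histone genes was -0.64 on Illumina and -0.58 on ONT, and that of all genes -0.04 and -0.02. Folds of single genes are given below as log2 HCC827 over H1975, and coordinates on GRCh38. Both platforms read the same RNA samples, so their line differences are not independent. Without scaling factors the median of all genes moved by -0.35 on Illumina and -0.55 on ONT. The histone calls were then 7 higher and 25 lower on Illumina and 7 higher and 32 lower on ONT, no called histone gene changed sign, and the share of higher calls over all genes went from 48.8% to 33.7% and from 49.5% to 23.9%. Leaving out each library in turn lost the call of 6 histone genes on Illumina (H1-2, H2BC6, H3C12, H3C13, H3C14 and H3C15) and of 7 on ONT (H1-3, H2AC7, H2AC14, H3C8, H3C10, H3C11 and H3C12).

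**Figure D2:**
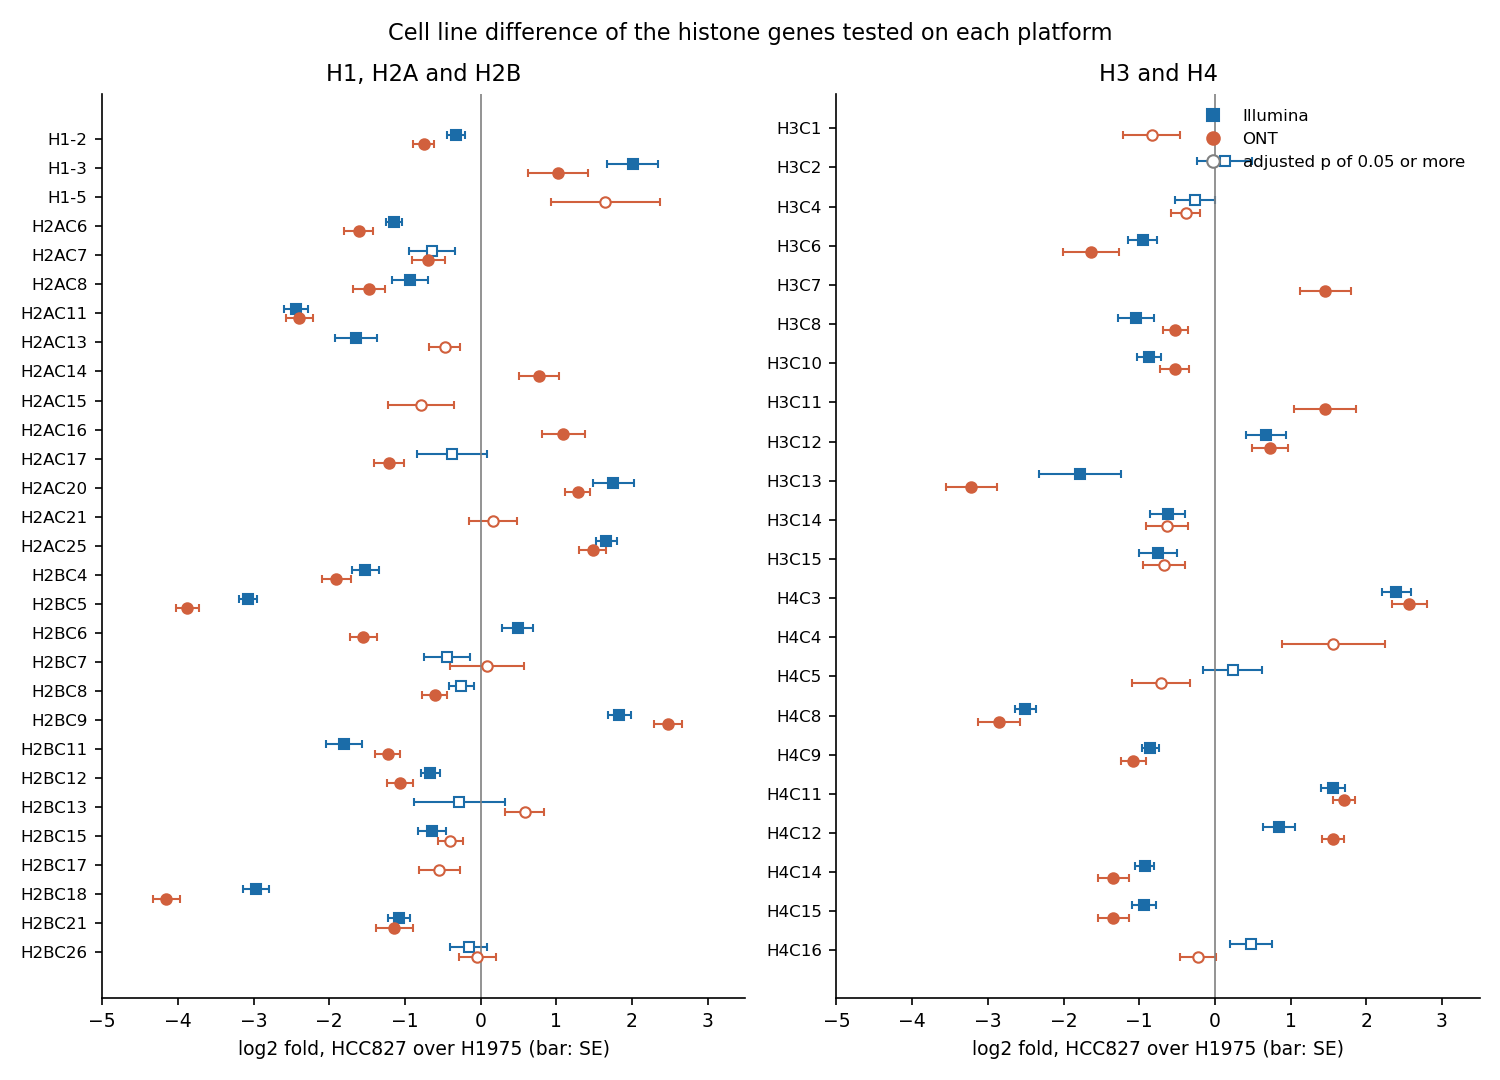
Log2 fold of HCC827 over H1975 with its SE (horizontal axis) for each histone gene tested, squares for Illumina and circles for ONT, filled where the adjusted p was below 0.05. Folds run from -4.15 (H2BC18, ONT) to 2.57 (H4C3, ONT), and H2BC6 is the gene called on both platforms with opposite signs.

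Among the H1 linker histones, which bind DNA between nucleosomes, H1-2 made up nearly the whole class. It took 97.6% ± 0.35 (SD, n = 3) of H1 counts in H1975 and 89.7% ± 3.66 in HCC827 on Illumina, and 99.3% ± 0.38 and 97.0% ± 0.69 on ONT. H1-2 (ENSG00000187837.4, chr6:26055740-26056470 on the minus strand) stood at 17.0, 16.8 and 17.99 in H1975 and 12.0, 12.9 and 16.04 in HCC827 on Illumina, in scaled CPM, which is relative to the library size after TMM scaling. The lines did not overlap (log2 fold -0.33 ± 0.12 (SE), adjusted p = 0.021), and on ONT the fold was -0.75 ± 0.13 (SE), adjusted p = 0.000579. The Illumina call ended without H1975 replicate 3 (adjusted p = 0.0747), HCC827 replicate 1 (0.12) or HCC827 replicate 2 (0.0743).

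H1-3 ran the other way. It had scaled CPM of 0.193, 0.305 and 0.186 in H1975 and 0.893, 0.583 and 1.15 in HCC827 on Illumina (log2 fold 2.01 ± 0.34 (SE), adjusted p = 8.51e-05), with every HCC827 library above every H1975 library. On ONT the log2 fold was 1.03 ± 0.39 (SE), adjusted p = 0.0404, and 0.47 with no scaling factor (adjusted p = 0.308). The ONT call ended without any 1 of the H1975 replicates or HCC827 replicate 3 (adjusted p between 0.0569 and 0.152). H1-4 was too low for the line tests, at 4, 6 and 9 raw counts in H1975 and 5, 3 and 30 in HCC827 on Illumina. H1-5 had 2, 1 and 1 and 5, 1 and 16, and H1-1 at most 4 counts in any library. In both H1-4 and H1-5 the HCC827 library that stands high is replicate 3, whose header names a repeat.

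Of the 8 H2A genes tested on Illumina, 4 were lower in HCC827, 2 higher and 2 not called, and of the 12 tested on ONT 5 were lower, 4 higher and 3 not called. H2AC6 (ENSG00000180573.10, chr6:26124145-26139116 on the plus strand) was the H2A gene of the highest level per kilobase, with scaled CPM of 42.9, 44.9 and 45.8 in H1975 and 20.1, 17.7 and 21.9 in HCC827 on Illumina (log2 fold -1.14 ± 0.10 (SE), adjusted p = 1.27e-07) and 37.6, 40.3 and 42.8 in H1975 and 14.8, 9.22 and 15.5 in HCC827 on ONT (log2 fold -1.61 ± 0.20 (SE), adjusted p = 3.89e-05). The lines were apart on both platforms. An exon of H2AC6 overlaps ENSG00000291336 on the same strand, which leaves its counts uncertain. H2AC11 differed most among the H2A genes, from 8.59, 8.64 and 9.62 to 1.96, 1.17 and 1.49 scaled CPM on Illumina (log2 fold -2.44 ± 0.16 (SE), adjusted p = 6.6e-09) and a fold of -2.39 ± 0.18 (SE) on ONT. H2AC8 was lower, at -0.94 on Illumina and -1.47 on ONT.

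H2AC20 and H2AC25 were the H2A genes higher in HCC827 on Illumina. H2AC20 stood at a scaled CPM of 0.483, 0.392 and 0.452 in H1975 and 1.12, 1.52 and 1.90 in HCC827 (log2 fold 1.76 ± 0.28 (SE), adjusted p = 4.68e-05), and its ONT fold was 1.28 ± 0.17 (SE). H2AC25, which lies at the smaller cluster of chromosome 1 with H2BC26, stood at 2.68, 2.44 and 2.53 in H1975 and 7.34, 7.46 and 9.20 in HCC827 (log2 fold 1.66 ± 0.14 (SE), adjusted p = 7.43e-08) and had an ONT fold of 1.48 ± 0.18 (SE). The make-up of the class therefore differed between lines. On ONT H2AC6 took 60.9% ± 1.06 of H2A counts in H1975 and 27.9% ± 2.05 in HCC827, and H2AC25 took 11.0% ± 0.29 and 43.1% ± 1.81 (SD, n = 3). On Illumina H2AC6 stayed the first of the class in both lines, at 72.3% ± 1.35 and 59.0% ± 2.33, and H2AC25 took 4.14% ± 0.29 and 23.7% ± 1.36.

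H2AC13 and H2AC14 share 61.3% and 64.2% of their 75-base stretches with each other, so their counts are uncertain. H2AC13 was lower on Illumina, at scaled CPM of 2.00, 1.50 and 2.31 in H1975 and 0.490, 0.350 and 0.846 in HCC827 (log2 fold -1.65 ± 0.28 (SE), adjusted p = 0.000107), and was not called on ONT (-0.48, adjusted p = 0.0696). H2AC14 was tested on ONT only, where it was higher in HCC827 by 0.77 ± 0.26 (SE), a call that ended without H1975 replicate 2 or 3 or HCC827 replicate 1. H2AC17, which shares an exon with H3C12, was lower on ONT, at -1.21 ± 0.20 (SE) and not called on Illumina (-0.37, adjusted p = 0.474).

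H2B had the largest differences. Of 13 genes tested on Illumina 7 were lower, 2 higher and 4 not called, and of 14 on ONT 8 were lower, 1 higher and 5 not called. H2BC5 (ENSG00000158373.9, chr6:26158122-26171349 on the plus strand) stood at a scaled CPM of 31.0, 27.4 and 28.8 in H1975 and 3.40, 3.03 and 3.69 in HCC827 on Illumina (log2 fold -3.07 ± 0.12 (SE), adjusted p = 3.08e-11). On ONT it stood at 32.8, 27.8 and 28.8 in H1975 and 1.98, 2.03 and 2.08 in HCC827 (log2 fold -3.88 ± 0.15 (SE), adjusted p = 1.62e-08). H2BC18 (ENSG00000203814.7, chr1:149782689-149812373 on the minus strand) stood at 12.7, 15.0 and 15.1 in H1975 and 1.56, 1.17 and 2.37 in HCC827 on Illumina (log2 fold -2.97 ± 0.18 (SE), adjusted p = 2.47e-09) and at 8.50, 8.92 and 9.57 in H1975 and 0.528, 0.544 and 0.438 in HCC827 on ONT (log2 fold -4.15 ± 0.18 (SE), adjusted p = 2.57e-08). In both genes every HCC827 library was far below every H1975 library. H2BC18 shares 43.5% of its 75-base stretches with other genes, among them the pseudogene H2BP1, and overlaps FCGR1A on the opposite strand, so its counts are uncertain.

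H2BC9 (ENSG00000275713.3, chr6:26251614-26252075 on the plus strand) was the H2B gene called higher in HCC827 on both platforms. It had scaled CPM of 2.75, 3.18 and 3.03 in H1975 and 8.67, 11.5 and 12.2 in HCC827 on Illumina (log2 fold 1.83 ± 0.15 (SE), adjusted p = 5.89e-08) and 8.14, 6.02 and 6.10 in H1975 and 43.3, 31.6 and 37.9 in HCC827 on ONT (log2 fold 2.48 ± 0.18 (SE), adjusted p = 1.15e-06), with no overlap of the lines. It took 42.7% ± 2.78 of H2B counts in HCC827 on ONT and was not among the 5 highest H2B genes in H1975 there. On Illumina it took 21.3% ± 0.65 in HCC827, below H2BC12 at 26.8% ± 1.11. The H2BC9 promoter printed above holds the octamer, and that of H2BC5 does not. H2BC5 took 28.5% ± 1.71 of H2B counts in H1975 and 6.77% ± 1.19 in HCC827 on Illumina. H2BC12, the highest H2B gene per kilobase, was lower, at -0.66 ± 0.13 (SE) on Illumina and -1.06 ± 0.17 (SE) on ONT, and H2BC21 at -1.08 ± 0.15 (SE) and -1.14 ± 0.25 (SE). H2BC4 (-1.52 on Illumina and -1.91 on ONT) and H2BC11 (-1.80 on Illumina and -1.23 on ONT) were lower too. H2BC4 overlaps HFE on the opposite strand, which leaves its counts uncertain. H2BC7, with scaled CPM of 0.652, 0.740 and 0.744 in H1975 and 0.374, 0.466 and 0.711 in HCC827 on Illumina, was not called on either platform (-0.44 on Illumina and 0.08 on ONT).

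**Figure D3:**
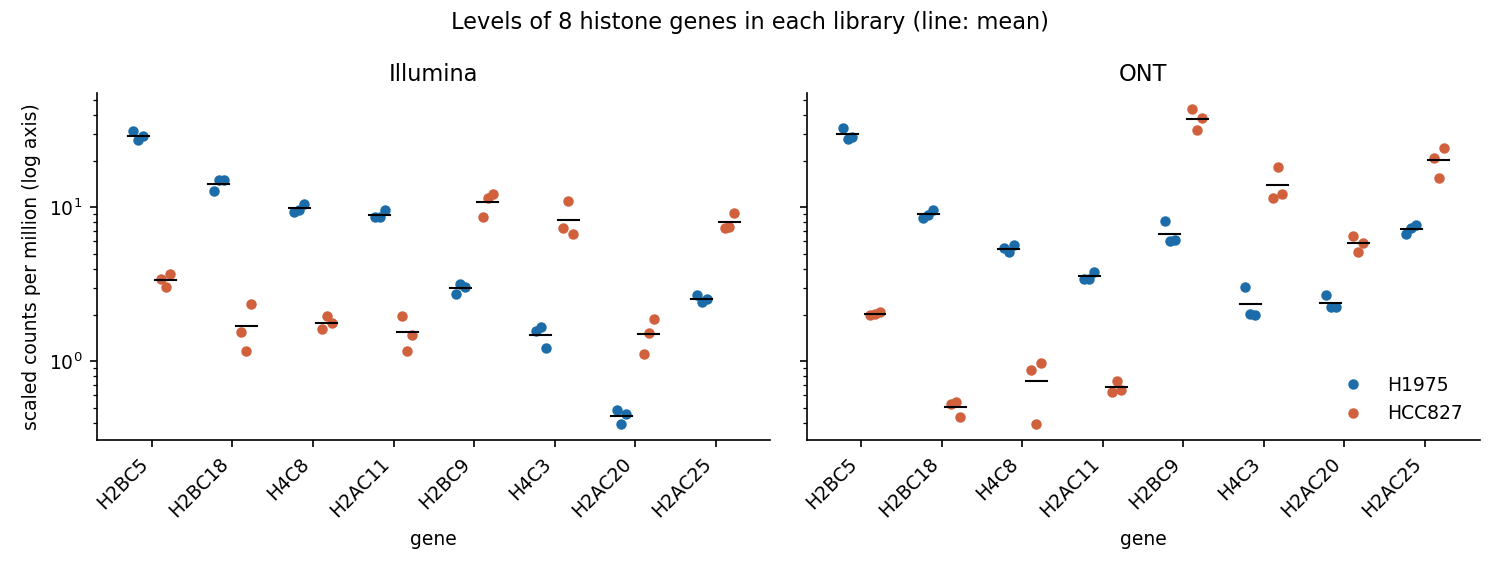
Scaled CPM (log axis) of 8 histone genes in each library, with H1975 in blue, HCC827 in red and a line at each mean of 3 libraries. H2BC5, H2BC18, H4C8 and H2AC11 sit lower and H2BC9, H4C3, H2AC20 and H2AC25 higher in all HCC827 libraries than in any H1975 library on Illumina and on ONT.

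H3 genes were low on both platforms. Of 9 tested on Illumina 6 were lower, 1 higher and 2 not called, and of 11 on ONT 4 were lower, 3 higher and 4 not called. H3C10, the H3 gene of the highest level per kilobase, had scaled CPM of 5.91, 6.77 and 8.19 in H1975 and 3.23, 4.08 and 4.30 in HCC827 on Illumina (log2 fold -0.87 ± 0.16 (SE), adjusted p = 0.000215), with no overlap, and was lower, at -0.53 ± 0.20 (SE) on ONT (adjusted p = 0.0331). Its ONT call ended without H1975 replicate 2 or 3 or HCC827 replicate 1 or 2 (adjusted p between 0.0635 and 0.145). H3C8 had 1.81, 1.57 and 1.75 in H1975 and 0.605, 0.816 and 1.08 in HCC827 (log2 fold -1.04 ± 0.24 (SE)) and -0.53 ± 0.17 (SE) on ONT, where the call ended without any 1 of the H1975 replicates (adjusted p between 0.051 and 0.0586). H3C6 was lower, at -0.95 ± 0.19 (SE) and -1.64 ± 0.37 (SE).

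H3C13 was the H3 gene with the largest fold, at scaled CPM of 0.314, 0.457 and 0.532 in H1975 and 0.0576, 0 and 0.237 in HCC827 on Illumina (log2 fold -1.78 ± 0.55 (SE), adjusted p = 0.00876) and 0.620, 0.669 and 0.655 in H1975 and 0.0862, 0.0355 and 0.0847 in HCC827 on ONT (log2 fold -3.22 ± 0.34 (SE), adjusted p = 1.36e-05). It shares 62.8% of its 75-base stretches with other genes, and without HCC827 replicate 1 the Illumina call ended (adjusted p = 0.0838). H3C14 and H3C15, which share 99.1% and 100.0% of theirs, had Illumina folds of -0.63 and -0.76 and ONT folds of -0.63 and -0.67, called on Illumina only. The H3C14 call ended without H1975 replicate 1 or 3 or HCC827 replicate 1 or 2, and the H3C15 call without HCC827 replicate 1. H3C12 was higher by 0.68 on Illumina and 0.73 on ONT, and overlapped between lines on ONT, where its 3 HCC827 libraries were uneven, at 5.06, 7.15 and 3.39 scaled CPM. On Illumina they stood at 1.90, 4.55 and 2.06, and replicate 2 was the highest on both platforms. Its Illumina call ended without H1975 replicate 1 or HCC827 replicate 2, and its ONT call without H1975 replicate 1 or 3. H3C7, tested on ONT only, had scaled CPM of 0.171, 0.223 and 0.0894 in H1975 and 0.474, 0.449 and 0.409 in HCC827 (log2 fold 1.46 ± 0.34 (SE), adjusted p = 0.00296).

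H4 genes, which encode one nearly invariant protein from many loci, went both ways. Of 9 tested on Illumina 3 were higher, 4 lower and 2 not called, and of 10 on ONT 3 were higher, 4 lower and 3 not called. H4C3 (ENSG00000197061.5, chr6:26103933-26104337 on the plus strand) was higher, with scaled CPM of 1.57, 1.68 and 1.22 in H1975 and 7.31, 11.0 and 6.70 in HCC827 on Illumina (log2 fold 2.40 ± 0.19 (SE), adjusted p = 5.21e-08) and 3.04, 2.03 and 2.00 in H1975 and 11.5, 18.3 and 12.3 in HCC827 on ONT (log2 fold 2.57 ± 0.24 (SE), adjusted p = 5.62e-06). All HCC827 libraries exceeded all H1975 libraries, with replicate 2 the highest on both platforms. H4C8 (ENSG00000158406.6, chr6:26277609-26285638 on the minus strand) was lower, with 9.32, 9.66 and 10.5 in H1975 and 1.61, 1.98 and 1.76 in HCC827 on Illumina (log2 fold -2.51 ± 0.14 (SE), adjusted p = 1.36e-09) and 5.42, 5.11 and 5.66 in H1975 and 0.884, 0.390 and 0.974 in HCC827 on ONT (log2 fold -2.85 ± 0.28 (SE), adjusted p = 8.24e-06), again with no overlap. H4C8 overlaps ENSG00000289447 on the opposite strand.

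H4C11 and H4C12 were higher in HCC827 by 1.56 ± 0.16 (SE) and 0.85 ± 0.21 (SE) on Illumina and by 1.71 ± 0.15 (SE) and 1.56 ± 0.15 (SE) on ONT. H4C14 and H4C15 were lower, at -0.93 ± 0.13 (SE) and -0.94 ± 0.16 (SE) on Illumina and at -1.34 ± 0.21 (SE) and -1.34 ± 0.21 (SE) on ONT. H4C9 (ENSG00000276180.2, chr6:27139282-27139678 on the plus strand), the H4 gene of the highest level per kilobase, was lower, at -0.85 ± 0.12 (SE) and -1.08 ± 0.16 (SE). H4C16, the gene on chromosome 12, was not called on either platform (0.48 on Illumina and -0.22 on ONT).

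Per kilobase of exon, on Illumina and over the 6 libraries, the highest genes were H2BC12 at 36.3 CPM per kilobase, H4C9 at 29.1, H1-2 at 21.6, H2BC5 at 20.8 and H2AC6 at 20.4. In H1975 the order was H2BC12 (48.6 ± 2.05, SD, n = 3), H4C9 (40.8 ± 1.37), H2BC5 (38.2 ± 2.09), H2AC6 (30.2 ± 1.18) and H1-2 (26.7 ± 0.91). H4C9 and H2BC5 did not differ beyond their spread. In HCC827 it was H2BC12 (24.1 ± 3.20), H2BC9 (20.5 ± 2.47), H4C3 (18.1 ± 4.63), H4C9 (17.3 ± 2.07) and H1-2 (16.5 ± 1.94), where the neighbours lay within their spread of one another. The highest H3 gene, H3C10, reached 6.29 ± 1.04 in H1975 and 2.72 ± 0.26 in HCC827.

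Position in the genome was set beside the line differences. Of 9 measured genes at the large chromosome 1 cluster, 8 were tested on Illumina and 7 were lower and 1, H2AC20, higher. On ONT 5 of 9 were lower and 1 higher. The genes lower on Illumina include the copies H3C14 and H3C15, and H4C14 and H4C15, whose 75-base stretches are 96.2% to 100.0% shared. Such copies are not separate measurements. In the larger chromosome 6 group (33 genes) 8 of 18 tested were lower and 4 higher on Illumina, and in the smaller (21 genes) 7 of 12 were lower and 3 higher. On ONT 11 of 20 were lower and 4 higher in the larger group, and 6 of 18 lower and 6 higher in the smaller. Over all genes 38.0% were lower and 36.1% higher on Illumina, and 31.6% and 31.1% on ONT. Genes with the promoter octamer had 8 lower and 3 higher of 16 tested on Illumina, and genes whose promoter lacked it 14 lower and 4 higher of 23, with medians of -0.65 and -0.64. On ONT the counts were 12 lower and 4 higher of 20 with the octamer and 10 lower and 5 higher of 27 without it, with medians of -0.87 and -0.53. The difference between these groups of genes was not tested.

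Many H2A and H2B genes face each other with starts close together. There were 14 pairs of histone genes with starts within 1000 bases in opposite orientation, of which 11 had both genes tested on ONT and 5 had both called. Over all single genes 62.7% were called on ONT (31.1% higher and 31.6% lower). Whether facing genes differ together more often than other genes was not tested. The H2BC21 and H2AC20 starts lie 235 bases apart, and the line difference was of opposite sign: -1.08 on Illumina and -1.14 on ONT for H2BC21 against 1.76 on Illumina and 1.28 on ONT for H2AC20. In H2BC4 and H2AC6 (218 bases), H2BC11 and H2AC11 (247 bases) and H2BC8 and H2AC8 (232 bases) both genes were lower on ONT. In H3C7 and H2BC9 (978 bases) both were higher. H2AC25 was higher beside H2BC26, 229 bases away, which was not called (-0.16 on Illumina and -0.05 on ONT).

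The test of the difference itself, the interaction of line and platform over 12 libraries, called 5 of 48 histone genes, against 7.16% of 29395 genes (5.03% higher and 2.13% lower). H2BC6 had scaled CPM of 3.07, 1.89 and 2.29 in H1975 and 3.54, 4.31 and 2.77 in HCC827 on Illumina and 3.96, 3.99 and 4.001 in H1975 and 1.65, 1.24 and 1.17 in HCC827 on ONT. The lines overlapped on Illumina and not on ONT. HCC827 was called higher on Illumina (0.49, adjusted p = 0.0421, a call that ended without H1975 replicate 2 or 3 or HCC827 replicate 1 or 2) and lower on ONT (-1.55). The ONT line difference minus that of Illumina was -1.89 ± 0.29 (SE, adjusted p = 0.000253). H2BC6 overlaps ENSG00000283064 on the opposite strand, and no source used here gives the strand setting of the counting. The other 4 were H2AC13 (1.34), H2BC18 (-1.01), H4C12 (0.87) and H2BC5 (-0.64). With the scaling of DESeq2's size factors (RLE) in edgeR the count was 3, and with no scaling factor 6. Leaving out 1 replicate on both platforms gave 2 calls without H1975 replicate 1 or 2 or HCC827 replicate 1, 1 without H1975 replicate 3 and up to 5 without the others.

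Between platforms, histone genes took a larger part of ONT than of Illumina counts after TMM scaling. The fit did not pair the ONT and Illumina libraries of the same RNA sample. Of 48 genes tested, 40 were higher on ONT and 0 lower, against 83.4% of 29395 genes called (44.2% higher and 39.1% lower), and the median log2 ratio was 1.85, against 0.12 over all genes. Of the 48, H2AC14, H2AC15, H2AC16, H2AC21, H2BC17, H3C1 and H3C7 did not pass the filter of the Illumina line test and entered through ONT, so they had to be higher there. Of the 40 genes that passed the line filter on both platforms 33 were higher and 0 lower (median 1.43), against 42.4% higher and 42.1% lower of 23433 genes (median 0.01). With no scaling factor, which moved the median of all genes by -1.49, 23 of the 48 were higher and 17 lower. Of the 40 genes called higher with TMM scaling, 14 changed sign, 9 of them to a call the other way. The share of higher calls over all genes then went from 53.0% to 25.6%. With RLE factors and with DESeq2 40 were higher and 0 lower. At an unadjusted p below 0.05, edgeR gave 40 genes, all higher.

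The classes were read in the 40 genes that passed the line filter on both platforms. Of these, 7 of 8 H2A, 11 of 13 H2B and 6 of 8 H3 genes were higher on ONT. So were 8 of 9 H4 and 1 of 2 H1 genes. In the order H2A, H2B, H3, H4 and H1, the median log2 ratios were 2.83, 1.28, 1.03, 2.22 and 1.11. H4C12 had the highest ratio, lying between 0.547 and 1.22 scaled CPM (median 0.770) in the 6 Illumina libraries and between 14.3 and 53.3 (median 31.1) in the 6 ONT libraries (log2 ratio 5.14 ± 0.12 (SE), adjusted p = 4.74e-18). H2AC20 lay between 0.239 and 1.11 scaled CPM (median 0.477) in the 6 Illumina libraries and between 3.62 and 11.4 (median 6.66) in the 6 ONT libraries (log2 ratio 3.69 ± 0.15 (SE), adjusted p = 2.5e-14). Neither gene's libraries overlapped between platforms. H4C12 shares 92.0% of its 75-base stretches with H4C11, and H2AC20 17.9% with H2AC18 and H2AC19, so these ratios are uncertain. H1-2 lay between 7.05 and 11.1 scaled CPM (median 9.80) in the 6 Illumina libraries and between 30.3 and 54.8 (median 42.3) in the 6 ONT libraries (log2 ratio 2.15 ± 0.10 (SE), adjusted p = 8.48e-14), and H2BC9 had a log2 ratio of 2.99 ± 0.13 (SE). At the low end, H2BC7 lay between 0.219 and 0.460 scaled CPM (median 0.408) in the 6 Illumina libraries and between 0.102 and 0.413 (median 0.283) in the 6 ONT libraries (log2 ratio -0.51 ± 0.30 (SE), adjusted p = 0.123), and H2AC11 (0.19 ± 0.12 (SE)), H2BC18 (0.24 ± 0.13 (SE)), H3C6 (-0.17 ± 0.22 (SE)) and H1-4 (-0.21 ± 0.46 (SE)) were not called. H4C8 (0.45 ± 0.16 (SE), adjusted p = 0.016) lost its call without H1975 replicate 1, HCC827 replicate 1 or HCC827 replicate 3 and was at -1.06 with no scaling factor.

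Gene length moved with this ratio across the transcriptome. The 28 tested histone genes of up to 600 bases of exon had a median log2 ratio of 2.62, and 106 other protein-coding genes that short had 1.87. Over 600 and up to 1000 bases the order was the reverse, with 1.13 for 5 histone genes and 2.02 for 311 others. Over 1000 and up to 3000 bases, 13 histone genes had 1.19 and 3447 others 0.79, while over 3000 bases 2 histone genes had 1.0 and 12282 others -0.62. Among genes that passed the line filter on both platforms, the medians were 2.6 (21 histone genes) against 1.78, 1.64 (4) against 2.06, 1.19 (13) against 0.78 and 1.0 (2) against -0.65. Across genes, which share the same 12 libraries and are no independent replicates, the ratio fell with log2 exon length with Pearson's r of -0.34 over the 48 histone genes and -0.34 over 16194 protein-coding genes. The part of length in the histone ratios was not tested.

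**Figure D4:**
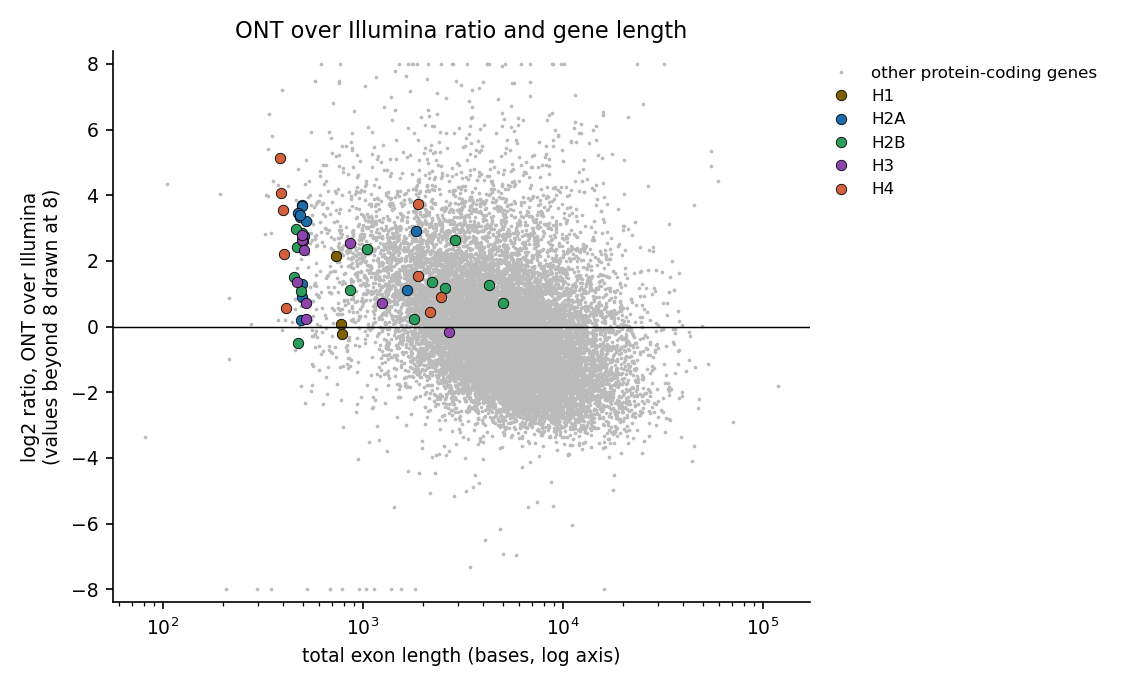
Log2 ratio of ONT over Illumina (vertical axis) against total exon length (bases, log axis) for protein-coding genes in grey and for the 48 tested histone genes coloured by class. Most histone genes lie at the short end, with a median of 2.62 for the 28 genes of up to 600 bases.

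Within ONT, 4 pairs of neighbouring histone genes had nearly equal raw counts in every library. H4C14 had 3420, 3916 and 4444 counts in H1975 and 1482, 922 and 1300 in HCC827, and H4C15 3429, 3917 and 4447 and 1482, 924 and 1300, a ratio of 0.997 to 1.0. On Illumina H4C14 had 1107, 1468 and 1398 and 545, 139 and 540 counts and H4C15 251, 297 and 322 and 115, 33 and 117, a ratio of 4.21 to 4.94. These copies share 96.2% and 100.0% of their 75-base stretches. H4C11 and H4C12 (91.4% and 92.0% shared) had ONT ratios of 0.884 to 0.994 and Illumina ratios of 1.44 to 2.62, and H3C14 and H3C15 ratios of 0.974 to 1.03 and 1.15 to 1.67. Log2 ratios of ONT over Illumina were 1.54 for H4C14 and 3.73 for H4C15. Counts of such copies cannot be assigned to 1 gene, so their platform ratios are uncertain and their line folds are not 2 measurements on ONT.

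The genes of the fourth pair share no such stretch with each other. H2BC12 and H4C9 lie 6682 bases apart on opposite strands. H4C9 shares 0 of its 75-base stretches with another gene, and H2BC12 39.0% with other H2B genes, among them H2BC6 and H2BC11, and with ENSG00000274559. H2BC12 had 7125, 6089 and 6418 ONT counts in H1975 and 2966, 1933 and 2558 in HCC827. H4C9 had 7271, 6239 and 6606 and 2956, 2003 and 2574, a ratio of 0.965 to 1.0. On Illumina the ratio was 1.42 to 2.07. In GENCODE H2BC12 spans 495 bases, whereas in RefSeq it runs over chr6:27138293-27146858, which contains H4C9. No source used here gives the annotation release behind the counts, so the ONT counts of both genes are uncertain.

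**Figure D5:**
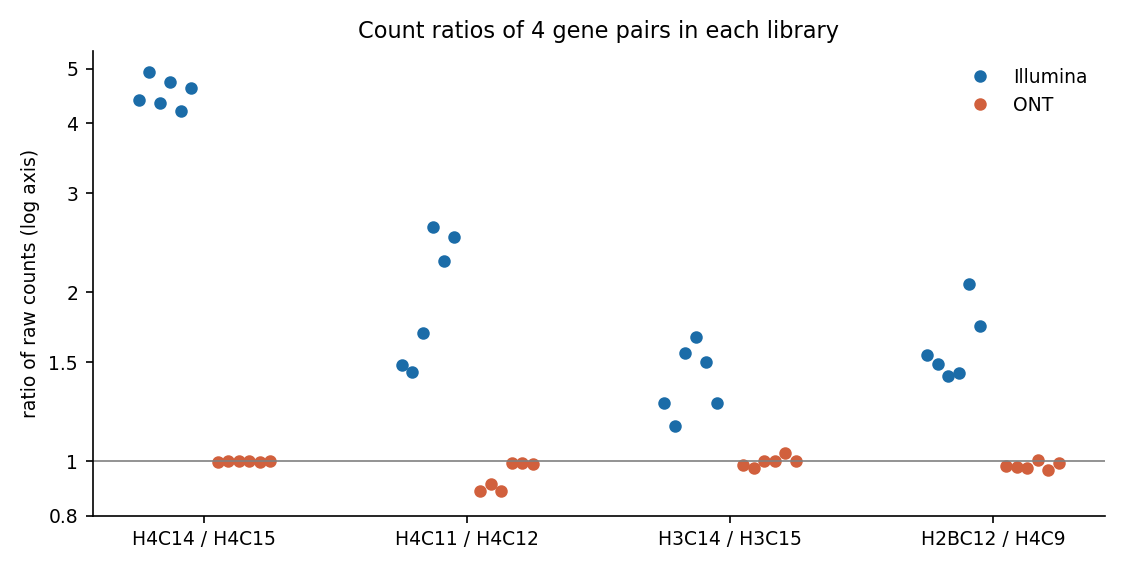
Ratio of the raw counts of the named genes (log axis) in each of the 6 Illumina and 6 ONT libraries for 4 pairs of histone genes. ONT ratios lie between 0.884 and 1.03 in all 4 pairs, and Illumina ratios between 1.15 and 4.94.

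PacBio libraries held few histone counts. The 64 genes had 23 counts in H1975 (95% exact Poisson interval 14.6 to 34.5, of 144651 gene counts) and 6 in HCC827 (2.2 to 13.1, of 133044). At the share that these genes took of ONT counts, PacBio libraries of this depth would hold 75.4 and 32.9 counts, and at the Illumina share 43.6 and 18.5. Of the 64 genes 53 had 0 counts in all 6 libraries. The 11 others were H2BC21 with 6 counts, H2AC6 with 5, H3C10 with 4, H2AC11 and H2AC13 with 3 each, H2BC4 and H2BC11 with 2 each, and H3C6, H4C3, H4C8 and H4C14 with 1 each. The 5 H2AC6 counts were 1 in H1975 and 4 in HCC827, and the 6 H2BC21 counts 5 and 1.

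By class, H4 had 3 counts in H1975 (0.619 to 8.77), where its ONT share gives 29.5 and its Illumina share 11.2. In HCC827 H4 had 0, where those shares give 14.6 and 5.46. A count of 0 is taken here to allow up to 3 counts, a rule separate from the intervals. H2B had 8 in H1975 (3.45 to 15.8), where the ONT and Illumina shares give 26.0 and 16.7. It had 2 in HCC827 (0.242 to 7.22), against 9.63 and 5.91. H2A had 7 in H1975 (2.81 to 14.4), against 11.6 and 10.1, and 4 in HCC827 (1.09 to 10.2), against 5.09 and 3.98. Both H2A intervals hold both values. H3 had 5 in H1975 (1.62 to 11.7), against 2.77 and 2.82, and 0 in HCC827, against 1.51 and 1.41. H1 had 0 in both lines, against 5.58 and 2.9 in H1975 and 2.12 and 1.79 in HCC827. Genes of up to 1000 bases had 7 counts in H1975 (2.81 to 14.4, against 44.1 and 19.1), and genes over 1000 bases had 16 (9.15 to 26.0, against 31.3 and 24.5). The 12 replacement variants had 127 counts in H1975 and the 22 S phase genes 251, where the ONT share gives 283 and 143. Total RNA input, size selection and clustering of reads differ together from the other platforms and cannot be told apart. Intervals cover counting error only.

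No histone gene passed the filter of the PacBio line test (0 of 64 tested, where 22.9% of 901 genes tested were called), so the line difference could not be read gene by gene. DESeq2 was run on the same genes and so tested 0 of them too. In the platform fits, 9 of 23 histone genes tested were lower on PacBio than on Illumina, against 49.3% of 19189 genes called (8.99% higher and 40.3% lower). On PacBio 24 of 42 were lower than on ONT, against 46.8% of 24440 called (13.7% higher and 33.1% lower). All 23 and 42 genes had passed the line filter on the other platform only, where they are high. Of all such genes 40.5% were lower and 7.87% higher on PacBio than on Illumina, and 33.7% and 11.5% than on ONT. The filter favours lower calls on PacBio, so the 9 and 24 lower calls are a description. With no scaling factor these counts were 5 and 9, and the share of higher calls over all genes went from 18.2% to 57.8% and from 29.2% to 76.3%. H2BC12 and H1-2, for example, had 0 PacBio counts, which over both lines allows 10.8 CPM.

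The replacement variants, expressed also outside S phase, took a larger part of the counts as a group. Illumina and ONT libraries were made from poly(A)-selected mRNA, and how much of each histone RNA was kept was not tested. The counts therefore do not give the abundance of the 2 groups in the cells. The 12 genes summed to 1639 ± 6.08 CPM in H1975 and 1213 ± 26.7 in HCC827 on Illumina (SD, n = 3). Between lines 5 were higher, 6 lower and 1 not called on Illumina (median -0.15), and 4 higher and 6 lower on ONT (median -0.42). The shares over all genes were 36.1% higher and 38.0% lower on Illumina, and 31.1% and 31.6% on ONT. H2AX, which carries the hairpin and can also be polyadenylated, had scaled CPM of 49.4, 43.9 and 43.8 in H1975 and 58.0, 87.7 and 70.3 in HCC827 on Illumina (log2 fold 0.64 ± 0.13 (SE), adjusted p = 0.000432). H2AJ was higher by 1.197 on Illumina and 1.05 on ONT, H1-10 by 0.94 on Illumina and 1.44 on ONT, and MACROH2A2 lower, at -2.69 on Illumina and -2.03 on ONT. On ONT against Illumina, 8 of the 12 were higher and 4 lower (median 1.75), against 44.2% higher and 39.1% lower over all genes.

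Factors that make, use or degrade the hairpin differed in both directions. Of 16 genes of histone mRNA 3′ processing, 7 were higher and 3 lower in HCC827 on Illumina and 4 higher and 3 lower on ONT, with medians of 0.02 and 0.20. For these lists, the shares over all genes were 36.1% higher and 38.0% lower on Illumina, and 31.1% and 31.6% on ONT. SLBP had scaled CPM of 39.5, 38.8 and 38.6 in H1975 and 37.9, 37.0 and 42.4 in HCC827, was not called (log2 fold 0.01 ± 0.09 (SE), adjusted p = 0.922) and overlapped between lines. RNU7-1, the U7 small nuclear RNA gene, was not called either (0.43 on Illumina and 0.14 on ONT). The cleavage factor genes CPSF1 (1.65 on Illumina and 2.13 on ONT) and SYMPK (0.84 on Illumina and 1.19 on ONT), shared with ordinary mRNA processing, were higher. Of 10 genes of histone mRNA decay 3 were higher and 6 lower on Illumina, with ATR, the replication stress kinase, at -1.12 and the uridylyltransferase TUT4 at 0.93.

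Of 10 genes of histone gene transcription 2 were higher and 5 lower on Illumina (median -0.20), and 4 higher and 1 lower on ONT (median 0.28). All genes together had 36.1% higher and 38.0% lower on Illumina, and 31.1% and 31.6% on ONT. NPAT had scaled CPM of 23.3, 21.8 and 23.6 in H1975 and 17.6, 16.6 and 16.04 in HCC827 on Illumina (log2 fold -0.45 ± 0.10 (SE), adjusted p = 0.000663), with no overlap, and was not called on ONT (-0.09, adjusted p = 0.762). HINFP, a transcription factor of H4 genes, was higher by 1.19 on Illumina and 1.16 on ONT, and E2F1 by 1.08 on Illumina and 1.59 on ONT. CCNE1, cyclin E1, was lower on Illumina, at -0.59 ± 0.14 (SE), with an ONT fold of 0.02 (adjusted p = 0.949). Among 18 histone chaperones, 6 were higher and 5 lower on Illumina (median 0.05), with NASP, a chaperone of H3 and H4, at 1.06 on Illumina and 0.74 on ONT.

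Genes of S phase did not go the way of the summed histone counts. Of 22, 12 were higher and 6 lower in HCC827 on Illumina (median 0.33), and 9 higher and 4 lower on ONT (median 0.14). Their sum was 1045 ± 56.3 CPM in H1975 and 1316 ± 77.7 in HCC827 on Illumina (SD, n = 3). TK1, thymidine kinase, had scaled CPM of 23.8, 19.9 and 19.2 in H1975 and 51.6, 81.5 and 75.9 in HCC827 on Illumina (log2 fold 1.72 ± 0.15 (SE), adjusted p = 1.36e-07). CDT1, a replication licensing factor, was higher by 3.65 on Illumina and 1.33 on ONT. TK1 and CDT1 are named for their large folds and do not stand for the lower genes of the list. With no scaling factor the median of all genes moves by -0.35 and -0.55 as above, which is larger than the list's medians.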

How the data were processed

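The authors deposited 1 file of raw gene counts per library. The submitters' processing notes name minimap2 version 2.17, featureCounts and GRCh38, without saying which step used each. No source used here gives the annotation release or the strand setting. Ensembl IDs were matched to GENCODE release 44 without their version, and rows of spike-in controls (386533 to 1341478 counts in an Illumina or ONT library, 18 to 52 in a PacBio library) were left out of library sizes. Counts were fitted with edgeR 4.0.16 in R 4.3.3: TMM scaling, the expression filter by group at a minimum count of 10, a robust quasi-likelihood fit, two-sided tests and Benjamini-Hochberg adjustment over all genes, with calls below 0.05. Each line comparison used the 6 libraries of 1 platform. Platform ratios and the interaction used 12 libraries, with 1 mean per group. These main fits did not pair the libraries of the same RNA sample, so their p-values treat paired libraries as independent. Fold changes are HCC827 over H1975 throughout.

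Alternatives were RLE scaling, no scaling factor, DESeq2 1.42.0, no filter, a block, leaving out each replicate and summing the close PacBio pairs. The block was the replicate number in the line fits and the RNA sample in the platform and interaction fits. The histone genes and the other gene lists were chosen with earlier results of these data known. Any histone gene could be named. Values in every library were set for, in each class, the 3 highest per kilobase on Illumina, the 2 with the largest called Illumina fold and the highest and lowest platform ratio; of each other list the 3 with the largest called Illumina fold were named, and SLBP, NPAT, RNU7-1 and H2AX. Library values of H1-5, H2AC25, H2BC6, H3C11, H3C12, H4C6, H4C15, COL1A2 and RN7SK were added after they were seen. A gene that this rule names is not reported here. The series design ties same-numbered libraries of a line across platforms to 1 RNA sample. Deviations of the same-numbered ONT and Illumina libraries from their group means correlated with r from 0.018 to 0.503. On simulated counts the line fits of Illumina and ONT each recovered 93% of genes changed by a log2 fold of 1, and the interaction 56%. The simulation gave all genes and libraries the same dispersion and changed only genes with enough counts in every group. It therefore does not give the recovery for histone genes of low count or for uneven replicates. Sequence was read from GRCh38 and from RefSeq promoters, and 75-base stretches were compared between GENCODE transcripts.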

Additional observations from a re-analysis of the deposited data

Results flagged for a closer look

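The line difference differed between ONT and Illumina in 5 of the 48 histone genes tested, by edgeR's interaction term over 12 libraries at an adjusted p below 0.05, against 7.16% of 29395 genes. In H2BC6 the ONT line difference minus that of Illumina was -1.89 ± 0.29 (SE, log2, adjusted p = 0.000253) and was called in 11 of 11 alternatives, between -2.27 and -1.75. H2BC18 was at -1.01 (adjusted p = 0.0258, called in 7 of 11) and H2BC5 at -0.64 (adjusted p = 0.0468, called in 5 of 11). H2AC13 was at 1.34 (adjusted p = 0.0328, called in 5 of 11) and H4C12 at 0.87 (adjusted p = 0.0274, called in 4 of 11). H2AC13, H4C12 and H2BC18 share sequence with other genes, and H2BC6 and H2BC18 overlap genes on the opposite strand. The part of shared sequence and overlap in these differences was not tested.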

How the results depend on the processing

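With no scaling factor, ONT gave 7 histone genes higher in HCC827, and ONT over Illumina 23 higher and 17 lower. The interaction then gave 0 higher and 6 lower, PacBio over Illumina 5 (all 5 lower) and PacBio over ONT 9 (all 9 lower). With no scaling factor the log2 ratio of ONT over Illumina changed sign in 19 of the 48 histone genes tested. Among the genes set by the naming rule it turned negative for H1-3 (-1.41), H2AC11 (-1.31), H2AC13 (-0.59), H2AC6 (-0.39), H2BC18 (-1.25), H2BC5 (-0.37), H3C10 (-0.79), H3C13 (-0.13), H3C14 (-1.25) and H4C8 (-1.06). The ONT line fold of H2BC7 was then -0.48. With RLE scaling the interaction gave 3 calls, 0 of them higher, and with DESeq2 1 higher. DESeq2 gave 2 histone genes higher on PacBio than on Illumina. With no filter 64 histone genes were tested on Illumina, and 19 were higher in HCC827. Leaving out 1 replicate gave 1 to 5 interaction calls (0 to 3 higher, 1 to 3 lower) and 0 to 1 genes lower on ONT than on Illumina. It moved the ONT fold of H2BC7 between -0.39 and 0.51, and the platform ratios of H1-3 between -0.12 and 0.19, H1-4 between -0.52 and 0.39, H2AC11 between -0.042 and 0.33 and H3C6 between -0.44 and 0.13. The cause of these changes was not tested. With the replicate number as a block, the line calls were 31 on Illumina, 35 on ONT and 0 on PacBio. With the RNA sample as a block, the calls were 41 for ONT over Illumina and 6 for the interaction. They were 9 for PacBio over Illumina and 24 for PacBio over ONT. Between lines the numbers share only a label. Values under the alternatives were tallied only for the histone genes set by the naming rule. The tally covered their Illumina and ONT line folds and their ratios of ONT over Illumina. Of these values 671 kept direction and side of the threshold, 27 lost and 11 gained a call and 17 changed sign. PacBio depth left no histone gene to test between lines.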

Other observations

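The Illumina HCC827 replicate 3 library, whose header names a repeat, stood above the other HCC827 libraries in histone genes of low level. Of 29 histone genes under 0.5 CPM, 24 had a count in Illumina HCC827 libraries, and 21 were highest in replicate 3, as were 23 of the 37 other histone genes. Together the 29 took 6.97 CPM there and at most 2.36 in the other HCC827 Illumina libraries. The raw counts of H3C11 were 6, 0 and 23 in replicates 1 to 3, and those of H4C6 were 5, 0 and 15. Of 10 histone genes called higher in HCC827 with no filter and not tested with it, 9 were highest in replicate 3.

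RNAs without a poly(A) tail stood apart in the same library. The 14 genes of that list summed to 103, 61.9 and 189 CPM in the HCC827 Illumina libraries and to 56.8, 107 and 116 in H1975. RN7SK, a small nuclear RNA that regulates transcription elongation, had 1.16, 0.89 and 1.28 scaled CPM in H1975 and 1.76, 2.22 and 59.7 in HCC827. Of 7 genes of that list tested between lines on Illumina 0 were called by edgeR, and 0 had an unadjusted p below 0.05. On ONT 5 were higher and 1 lower of 13. Over all genes 74.1% were called on Illumina, and 31.1% were higher and 31.6% lower on ONT. Leaving this library out lost 0 of the 31 Illumina histone calls. Since it stood high in many histone genes, its removal tests the lower calls less than the higher ones. Calls gained without it are not given here, so its part in the histone calls was not tested in full.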
